A study of Mus musculus with 137 samples.

Results

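The comparison described here sets the lungs of young mice taken 35 days after bleomycin against the lungs of young mice taken 35 days after saline. Its members were the 4 libraries labelled as young, bleomycin, day 35 and the 4 labelled as young, NaCl, day 35, so it uses 8 libraries, which are 5.84% of those in the series. All mice were male C57BL/6J, and young means an age of 8 to 12 weeks. Bleomycin sulphate at 0.7 mg/kg, or saline (NaCl), was instilled into the trachea. Each library was made from 20 mg of flash-frozen lung with a kit for messenger RNA, and the titles number every lung separately. The labels mark the saline lungs as healthy, name no batch or collection date, and do not say which lobe was used or whether mice shared a cage or litter. The p-values below therefore measure only the spread between lungs within a group, pooled over all groups of the series, and that spread may be partly technical. Beside the 8 lungs stand those of young mice at day 28 (5 bleomycin, 5 saline) and day 42 (5 and 5), of old mice (21 months, 0.63 mg/kg) at day 35 (4 and 6), and of 4 young mice that received nothing. Young lungs of days 14, 21 and 56, with 4 or 5 lungs per treatment and day, appear in the time-course figure, and a few day-56 values are given. The series follows how lung fibrosis resolves with time and how age alters this.

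Bleomycin is a glycopeptide that breaks DNA strands, and its instillation injures the alveolar epithelium. Inflammation follows, and then a fibrotic phase in which fibroblasts, driven in part by transforming growth factor beta (TGF-beta), lay down collagen, elastin, fibronectin and tenascin. Monocytes enter the lung and become macrophages that produce osteopontin, proteases and growth factors, and surviving alveolar type 2 cells pass through a keratin-rich transitional state on their way to type 1 cells. In young mice the scar is known to recede over the weeks that follow.

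The 8 libraries held 17.31 to 25.11 M assigned reads. Genes that mark lung were high in all 8: Sftpc (surfactant protein C) at 13308 to 19802 CPM (counts per M assigned reads), Ager (a type 1 cell receptor) at 1625 to 2715, Scgb1a1 (a club cell secretory protein) at 6256 to 25364, Foxj1 (the ciliated cell regulator) at 45.2 to 140.3 and Cdh5 (an endothelial cadherin) at 786 to 1189 CPM. No pair of lungs within a group differed by so little as to be 1 library deposited under 2 labels. Differences are log2 fold changes, bleomycin against saline, with the standard error (SE) of edgeR's quasi-likelihood test after ±, and a gene is called where its Benjamini-Hochberg adjusted p is under 0.05. Per-lung values are CPM after TMM scaling, which hold no correction for transcript length and so are not compared between genes.

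Gene expression differed widely between the 2 groups. Of 18396 genes tested, 3626 were called (19.7%), 1862 of them higher (10.1%) and 1764 lower (9.59%) after bleomycin. The difference was over 2-fold in 641 of the genes called higher and 567 of those called lower. The median log2 fold change of all genes tested was -0.01. In 3934 genes (21.4%) the values of the 4 bleomycin lungs did not overlap those of the 4 saline lungs, and 2848 of these were among the genes called. Of the genes called, 1815 (50.1%) were called with the same sign in all 8 fits that left out 1 lung.

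**Figure D1:**
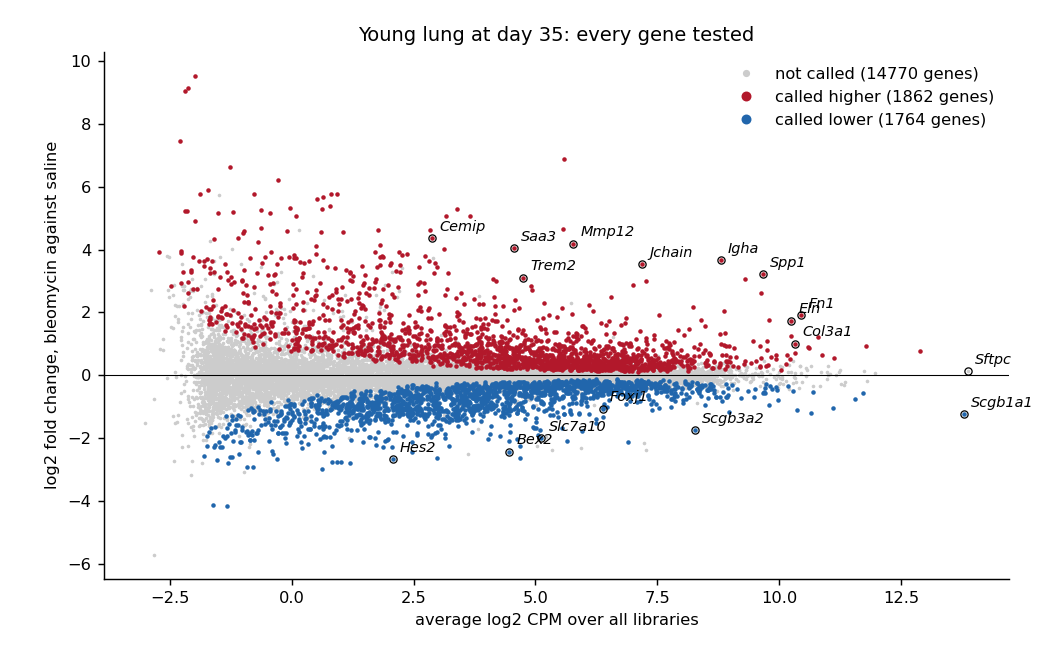
Every gene tested in young lung at day 35: average log2 CPM over all libraries (x axis) against log2 fold change, bleomycin against saline (y axis). Red and blue points are the 1862 and 1764 genes called higher and lower, grey points the rest, and 17 genes are labelled. Sftpc lies near 0 at the right edge while Scgb1a1 lies below it.

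The bleomycin lungs were not equally affected. Lung 4 was the lowest of the 4 in 1387 (74.5%) of the genes called higher and the highest of the 4 in 985 (55.8%) of those called lower, which places it nearest to saline. Lung 3 was the highest in 927 (49.8%) of the genes called higher and the lowest in 921 (52.2%) of those called lower. On the first axis of a multidimensional scaling of the 8 libraries, which held 54.1% of the variance, the saline lungs lay between -1.3 and -0.96 and bleomycin lungs 1 to 4 at 0.7, 1.47, 2 and 0.27. Without lung 3 the count fell to 2283 genes, and without lung 4 it was 4162.

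Genes of the extracellular matrix were higher after bleomycin. Of 30 genes of fibrillar and interstitial matrix, 17 were called higher and 0 lower, with a median log2 fold change of 0.75. Because bulk tissue was read, more cells of a type and more RNA per cell cannot be told apart in this or any later result. Tnc, which encodes tenascin C, a matrix glycoprotein of wounds and healing tissue, stood at 238, 141.4, 334 and 98.5 CPM in bleomycin lungs 1 to 4 and at 37.8, 27.7, 22.6 and 22.7 in saline lungs 1 to 4. All 4 bleomycin lungs lay above all 4 saline lungs, and the difference was 2.88 ± 0.49 (7.35-fold, adjusted p = 4.16e-06). The gene lies on chromosome 4 (GRCm38, 63959785 to 64047015, minus strand). Eln, which encodes elastin, the elastic core of alveolar walls and vessels, was at 1929, 2013, 3209 and 955 CPM against 643, 599, 548 and 632. The groups did not overlap, and lung 4 was nearest to saline (1.74 ± 0.34, adjusted p = 5.85e-05).

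Fn1, which encodes the provisional matrix protein fibronectin, was at 1978, 1523, 3622 and 1133 CPM after bleomycin and at 609.5, 519.8, 447 and 626 after saline (1.91 ± 0.38, adjusted p = 1.00e-04). The main fibrillar collagens had smaller fold changes, and the difference between genes was not tested. Col3a1 was at 1979, 1883, 2230 and 1313 CPM against 999, 844, 806 and 1019 (1.01 ± 0.26, adjusted p = 0.00271). Col1a1 was at 965, 821, 1368 and 637 CPM against 555, 455, 422 and 545, groups again apart (0.94 ± 0.34, adjusted p = 0.0384). The call of Col1a1 was lost in 6 of the 8 fits that left out a lung, without bleomycin lung 1 or 3 or without any 1 of the saline lungs, where its highest adjusted p was 0.213. Larger relative rises came from minor members: Thbs4 (thrombospondin 4, 3.5 ± 0.64), Col24a1 (3.24 ± 0.53) and Thbs2 (2.27). Called rises were also seen in Col15a1 (1.39), Col5a2 (1.28), Lum (0.97), Fbn1 (0.85) and Bgn (0.53). Mfap4 (-0.08), Dcn (0.07), Col6a2 (0.18) and Col6a1 (0.29) were not called. The count of 17 fell to 9 without saline lung 3, to 10 without bleomycin lung 3 and to 11 without saline lung 2.

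The machinery that builds and links collagen showed smaller differences. Of 24 such genes, 12 were called higher and 1 lower, with a median of 0.39. P4ha3, a subunit of collagen prolyl 4-hydroxylase, was at 9.39, 11.6, 26.1 and 5.11 CPM against 2.15, 2.01, 1.08 and 1.51 (2.96 ± 0.55, adjusted p = 2.41e-05), whereas the more widely expressed subunits P4ha1 (0.01) and P4ha2 (0.1) were not called. Adamts2, which trims procollagen, rose by 0.98 ± 0.22, and Colgalt1, a collagen galactosyltransferase, by 0.47 ± 0.10. Lox, the lysyl oxidase that cross-links collagen and elastin, was at 109.1, 87.5, 209 and 89.9 CPM against 69.8, 64.8, 60.4 and 80.3. Lungs 2 and 4 were close to the highest saline value (0.85 ± 0.31, adjusted p = 0.0398), and the adjusted p of Lox reached 0.399 in the alternatives. Its relatives Loxl2 (0.91), Loxl3 (0.55) and Loxl1 (0.54) were called as well. Pcolce2, a procollagen proteinase enhancer, fell by 0.83. Without bleomycin lung 3, 6 of these genes were called higher.

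Among 21 basement membrane genes 10 were called higher and 1 lower (median 0.39). The 2 widespread chains of collagen IV, Col4a1 (0.87 ± 0.2) and Col4a2 (0.7 ± 0.18), rose, as did the epithelial laminin chains Lama3 (0.63) and Lamb3 (0.61 ± 0.14). Lama1, a laminin chain typical of embryonic tissue, was at 29.6, 29, 66.5 and 28.2 CPM against 13.2, 7.97, 4.94 and 10.5. Every bleomycin lung exceeded every saline lung for Lama1 (2.08 ± 0.38, adjusted p = 2.06e-05). Col4a6 fell by 0.62. The count of 10 was 5 without bleomycin lung 3, and 6 without bleomycin lung 1 or without saline lung 3.

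The TGF-beta list counted 11 of 16 genes called higher and 2 lower (median 0.53). Of the ligands, Tgfb1 was at 110.4, 111.9, 119.6 and 100.2 CPM against 89, 88.9, 96.1 and 84.4, a small difference with no overlap (0.3 ± 0.09, adjusted p = 0.00612). Tgfb3 rose more, from between 43.5 and 51.5 CPM to 95, 101.4, 107.02 and 56.6 (0.87 ± 0.16, adjusted p = 1.58e-05). Tgfb2 rose by 0.48. Among proteins that store or release the latent ligand, Ltbp3 (0.57 ± 0.12), Itgb6 (0.57) and Itgav (0.45) rose while Ltbp4 fell by 0.44. Ltbp2, also on this list, rose by 1.56 ± 0.29. Of the targets, Pmepa1 rose by 0.98 ± 0.21 and Tgfbi by 0.86, whereas Ccn2, another well-known target, was not called (0.48, adjusted p = 0.158). Smad7, a feedback inhibitor of the pathway, fell by 0.43.

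Markers of injury-associated and contractile fibroblasts gave a mixed picture. Of 15 genes of injury-associated fibroblasts 4 were called higher and 0 lower (median 0.34). Grem1, a secreted antagonist of bone morphogenetic proteins (BMP), was at 8.58, 4.76, 32.7 and 2.07 CPM against 1.69, 1.37, 1 and 0.991. Lung 3 was far above the others and lung 4 just above saline (3.26 ± 0.72, adjusted p = 3.75e-04), and without lung 3 the adjusted p was 0.0511. Sfrp1, a WNT antagonist, was at 91.6, 68.6, 115.1 and 49.8 CPM against 23 to 32.8 (1.56 ± 0.34). Cthrc1, often used to mark collagen-rich scar fibroblasts, was at 6.39, 8.58, 13.2 and 4.18 CPM against 6.68, 5.05, 5.38 and 5.43, so the groups overlapped (0.52 ± 0.32, adjusted p = 0.285). Postn (0.02) and Fap (0.08) were not called either. Without bleomycin lung 3 the count was 2, and in a fit on the young libraries only it was 7.

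The contractile and smooth muscle list had 0 of 12 genes called higher and 5 lower (median -0.41). Its score, as mean log2 CPM minus the mean of the saline lungs, was -0.54, -0.68, -0.31 and -0.5 in the bleomycin lungs, and -0.03, -0.49, -0.57 and -0.56 in the 4 young untreated lungs. So 3 of the untreated lungs lay within the bleomycin range and the saline lungs stood above them. Cnn1, the smooth muscle calponin, was at 18.3, 14.7, 17.6 and 20.8 CPM against 45.8, 47.4, 60.3 and 32 (-1.38 ± 0.26, adjusted p = 4.26e-05), and at 41.8, 24.7, 18.4 and 22.2 in the untreated lungs. Myh11, smooth muscle myosin, was at 132.9, 96.5, 129.1 and 129.5 CPM against 234, 219, 196 and 206 (-0.81 ± 0.18). Actg2 (-0.77 ± 0.24), Synpo2 (-0.55 ± 0.16) and Lmod1 (-0.49) were the others called. Acta2, the actin that marks myofibroblasts and smooth muscle alike, was at 144.1, 139.02, 208 and 135.7 CPM against 202, 199, 224 and 177. Bleomycin lung 3 lay within the saline range, and the gene was not called (-0.35 ± 0.21, adjusted p = 0.257). The count of 5 was 2 without bleomycin lung 2 and 3 without saline lung 1.

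Of 14 genes of lipofibroblasts and alveolar fibroblasts, the resident cells that support alveoli, 8 were called lower and 2 higher (median -0.42). Slc7a10, an amino acid transporter, was at 14.6, 10.9, 3.31 and 26.1 CPM against 59.5, 52.4, 49.7 and 57.1 (-1.99 ± 0.44, adjusted p = 3.88e-04). Scube2 fell by 1.17 ± 0.21, Inmt by 1.1, Tcf21, a transcription factor of this lineage, by 0.68, and Pdgfra by 0.44. The 2 members called higher, Lpl (1.3 ± 0.21) and Plin2 (0.66 ± 0.15), encode a lipase and a lipid droplet coat that macrophages also make. Npnt, an alveolar matrix ligand, was not called (-0.35 ± 0.14, adjusted p = 0.0563), although it was called in 3 of the 13 alternative fits. Of 13 adventitial fibroblast genes 4 were called higher (Cd34, Gli1, Il33 and Col14a1) and 2 lower (Pi16 and Clec3b), and of 10 pericyte genes 1 was (Kcnj8, 0.53 ± 0.18).

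**Figure D2:**
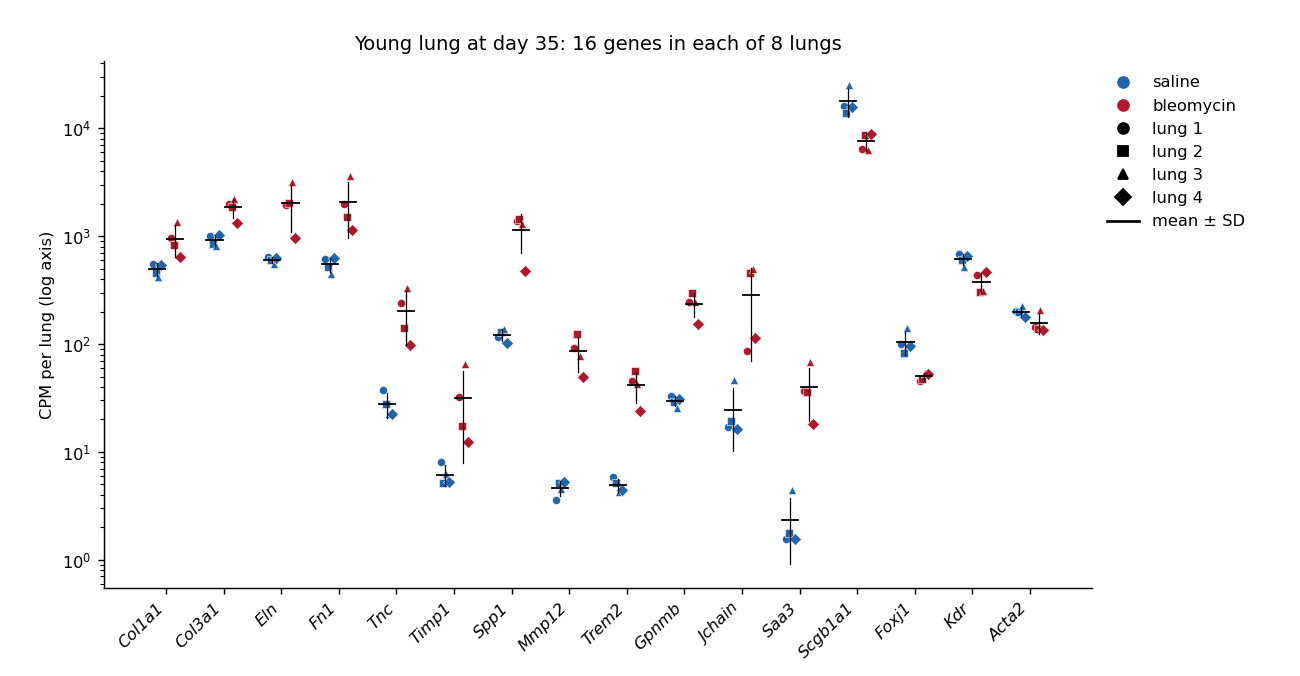
CPM on a log axis of 16 genes (x axis) in each saline (blue) and bleomycin (red) lung at day 35, with marker shapes for lungs 1 to 4 and black lines for the mean ± SD of 4 lungs. Bleomycin lung 4 (diamond) is the lowest red point for most genes that rose, as for Spp1 at 475 CPM, and Acta2 overlaps between the groups.

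Proteases that cut matrix rose with the matrix genes. Of 18 tested, 12 were called higher and 0 lower, with a median of 1.07. Mmp12, macrophage elastase, was at 91.1, 124.8, 78.1 and 49.3 CPM against 3.6, 5.18, 4.54 and 5.3, so the lowest bleomycin lung stood far above the highest saline lung (4.19 ± 0.58, 18.3-fold, adjusted p = 2.50e-08). Mmp12 lies on chromosome 9 (7344381 to 7369499, plus strand). Ctsk, a cysteine protease that degrades collagen and elastin, was at 149.7, 244, 183 and 96.1 CPM against 29.3, 28.4, 32.9 and 28.3 (2.5 ± 0.34, adjusted p = 1.50e-08). Mmp13 (2.23), Mmp19 (2.05 ± 0.28), Ctss (2.04 ± 0.25), Ctsd (1.75 ± 0.24), Mmp2 (1.46) and Mmp14 (1.15) were also called. Mmp9 (-0.23), Mmp8 (0.69) and the plasminogen activators Plau (0.19) and Plat (0.27) were not. Of 11 protease inhibitors 4 were called higher and 1 lower. Timp1, a secreted inhibitor of metalloproteinases, was at 32.6, 17.4, 65.5 and 12.3 CPM against 8.08, 5.1, 6.22 and 5.26 (2.38 ± 0.49, adjusted p = 1.37e-04), while Timp4 fell by 1.02 and Timp2 (0.05) and Timp3 (-0.02) were not called.

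Genes of monocyte-derived macrophages were higher after bleomycin, with 17 of 18 called higher, 0 lower and a median of 1.40. Spp1, which encodes osteopontin, was at 1371, 1458, 1304 and 475 CPM against 117.5, 130.1, 139.1 and 102.9 (3.23 ± 0.43, 9.41-fold, adjusted p = 8.07e-09). Lung 4 stood apart from the other 3 but still lay well above saline. Trem2, a receptor for lipids and dying cells, was at 45.9, 56.1, 42.3 and 23.7 CPM against 5.87, 5.1, 4.26 and 4.39 (3.11 ± 0.3, adjusted p = 1.48e-13). Gpnmb, a glycoprotein of lipid-laden macrophages, was at 246, 295, 247 and 155 CPM against 32.9, 29.1, 25.6 and 30.8 (3 ± 0.35). The chemokine receptor Cx3cr1 (1.1), the growth factor receptor Csf1r (0.37) and the 3 chains of complement C1q (1.59 to 1.82) rose as well. Ccr2, the receptor of circulating monocytes, was the member not called (0.57, adjusted p = 0.0683). Arg1 was the least even, at 49, 3.1, 25.1 and 1.26 CPM against 1.34 to 1.88, where lung 4 lay below saline (3.64 ± 0.81, adjusted p = 4.12e-04), and it was not called in a fit on the 8 libraries alone.

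The alveolar macrophage list split, with 7 of 16 genes called higher and 4 lower (median 0.42). Called higher were Itgax (1.41 ± 0.17), Mrc1 (1 ± 0.18), Chil3 (1.08 ± 0.35), Plet1 (0.68), Abcg1 (0.65 ± 0.12), Atp6v0d2 (1.66 ± 0.22) and Pparg (0.43). Called lower were Fabp1 (-2.22), Krt79 (-2.04), Cidec (-1.21) and Car4 (-0.67 ± 0.15), the last of which is also a capillary marker. Marco (-0.36) and Siglecf (-0.41), 2 surface markers of resident alveolar macrophages, were not called. Of 11 interstitial macrophage genes 3 were called higher (Mrc1, H2-Eb1 and Gas6) and 2 lower, Lyve1 (-1 ± 0.26) and Cbr2 (-1.03 ± 0.27), both of which are also expressed outside macrophages.

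Genes of the lysosome and of lipid handling rose together. Of 21 genes 20 were called higher and 0 lower, with a median of 0.66. Cd68, a lysosomal glycoprotein of macrophages, was at 136.6, 161, 138.3 and 86.1 CPM against 43.9, 35.6, 38.1 and 38.3 (1.74 ± 0.23, adjusted p = 4.77e-09). Psap, the precursor of the saposins, was at 2457, 2765, 2483 and 1650 CPM against 1015, 984, 999 and 992 (1.23 ± 0.17). Lipa, the lysosomal acid lipase, rose by 1.09 ± 0.15, Abca1 and Abcg1, which export cholesterol, by 0.95 and 0.65, and Lamp1, a membrane protein of every lysosome, by 0.25. Mitf (0.5) and Tfec (1.16), members of the family of transcription factors that bind lysosomal gene promoters at the sequence CACGTG, were both called. Cd36 was the member not called (-0.28, adjusted p = 0.0502).

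Because these genes moved together, their promoters were searched for CACGTG, which reads the same on both strands. The search was chosen after the expression values were seen. RefSeq promoters (GRCm38.p6, from 250 bases before to 50 after a start site) were available for 16 of the 21 genes, and 5 of their 19 promoters (26.3%) held the sequence, those of Abca1, Gla, Lamp1, Nceh1 and Plin2. In the protease list 3 of 14 promoters held it (21.4%; Ctsd, Ctsl and Lgmn), in the macrophage list 0 of 17, and 2349 of all 32851 listed promoters did (7.15%). The 250 bases before the start site are shown for 3 genes with more than 1 copy, to let the spacing be seen, with each copy in capitals, 5′ to 3′ on the strand of the gene. Lamp1 (chr8:13158911-13159160, plus strand) holds 4 copies, the nearest beginning 15 bases before the start site, Ctsd (chr7:142387828-142388077, minus strand) 2 copies and Gla (chrX:134601006-134601255, minus strand) 2 copies.
Lamp1: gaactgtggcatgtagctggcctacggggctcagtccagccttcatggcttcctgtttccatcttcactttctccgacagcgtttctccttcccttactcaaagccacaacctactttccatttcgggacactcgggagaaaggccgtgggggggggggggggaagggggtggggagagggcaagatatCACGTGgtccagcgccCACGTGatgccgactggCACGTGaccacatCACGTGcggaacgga
Ctsd: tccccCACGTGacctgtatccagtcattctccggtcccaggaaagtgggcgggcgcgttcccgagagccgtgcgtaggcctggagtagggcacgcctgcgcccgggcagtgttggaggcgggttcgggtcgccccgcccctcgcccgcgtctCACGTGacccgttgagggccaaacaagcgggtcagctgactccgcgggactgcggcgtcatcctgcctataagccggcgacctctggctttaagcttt
Gla: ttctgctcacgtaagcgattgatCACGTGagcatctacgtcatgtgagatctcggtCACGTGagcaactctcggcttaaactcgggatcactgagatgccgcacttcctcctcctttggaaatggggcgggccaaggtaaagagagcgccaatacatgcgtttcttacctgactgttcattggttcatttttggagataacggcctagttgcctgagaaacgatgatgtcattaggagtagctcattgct
Ctsd, which encodes cathepsin D, was at 1189, 1695, 1283 and 875 CPM against 389, 352, 408 and 346, and Gla, which encodes alpha-galactosidase, rose by 0.91. A match describes these letters and is no measure of binding.

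Chemokines rose broadly, with 14 of 24 called higher, 0 lower and a median of 1.15. Ccl6 was at 465, 628, 459 and 423 CPM against 152, 145.7, 143.95 and 141.1 (1.76 ± 0.24, adjusted p = 1.41e-08), and Ccl9 at 63.8, 60.7, 51.9 and 31 against 12.3 to 14.3 (1.93 ± 0.32). Ccl2, the main attractant of monocytes, was at 7.42, 6.24, 15.1 and 3.53 CPM against 2.15, 2.01, 1.73 and 2.58 (1.93 ± 0.4, adjusted p = 1.68e-04). Cxcl9, an interferon-gamma target that attracts T cells, was at 4.76, 8, 12.3 and 1.54 CPM against 0.343 to 0.818 (3.57 ± 0.85), and Cxcl10 rose by 1.68 ± 0.40. The stromal chemokine Cxcl12 rose by 0.98 ± 0.20. Cxcl13, which attracts B cells, was not called (0.73 ± 0.45, adjusted p = 0.275). Apart from Cxcl9, Cxcl10 and Oas1a (0.87 ± 0.28), none of the 21 genes of the interferon response list was called, Isg15 (0.33) among them. In the fit on the 8 libraries alone, and in that on the young libraries, 7 of the 21 were called higher.

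Antigen presentation rose too. Of 18 genes of dendritic cells and major histocompatibility complex (MHC) class II, 11 were called higher and 1 lower (median 0.8). Cd74, the invariant chain, was at 1792, 2459, 2023 and 1442 CPM against 957, 1031, 1095 and 1010.4 (0.91 ± 0.17, adjusted p = 3.75e-05), and H2-Ab1 at 606, 786, 638 and 440.2 against 283, 340.5, 348 and 313 (0.94 ± 0.18). The dendritic cell growth factor receptor Flt3 (1.24 ± 0.22) and Xcr1 (1.49), a marker of conventional type 1 dendritic cells, rose, whereas Zbtb46 fell by 0.35. Clec9a, also on this list, was not called (0.28, adjusted p = 0.428). Of 16 complement genes 10 were called higher and 2 lower. C3ar1, a receptor for a complement fragment, was at 40.2, 31, 38.8 and 13.5 CPM against 8.54, 6.25, 5.1 and 6.89 (2.21 ± 0.27, adjusted p = 9.55e-10), while C7 fell by 0.73. Only Clec4d (1.76 ± 0.39) was called among 12 neutrophil genes, a lectin receptor that macrophages also carry, and S100a8 (0.32) and S100a9 (0.05) were not.

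Plasma cell genes included some of the largest rises of all. Of 19 genes 11 were called higher and 0 lower (median 1.61). Jchain, which joins secreted IgA and IgM, was at 86.4, 457, 497 and 113.2 CPM against 17, 19.2, 46.2 and 16.3 (3.54 ± 0.69, 11.6-fold, adjusted p = 6.72e-05). Lungs 2 and 3 were several times above lungs 1 and 4, and saline lung 3 stood above the other saline lungs. Igha, the IgA heavy chain, was at 194, 1439, 1168 and 286 CPM against 77.5, 97.6, 31.2 and 37.6 (3.66 ± 0.83). Ighg2c was at 81.2, 36.5, 182 and 42.2 CPM against 0.639, 0.0857, 1.24 and 0.862 (6.88 ± 1.51, adjusted p = 3.84e-04). Ighg2b (4.65 ± 1.03) and Ighg3 (4.02 ± 1.15) rose as well. Ighg3 was at 62.8, 20.3, 7.61 and 6.53 CPM, and here lung 1, not lung 3, was the highest (without lung 1 its adjusted p was 0.0688). The heavy-chain constant genes are alike in sequence, so their counts may be shared among them to an unknown extent. The plasma cell regulators Xbp1 (0.16), Prdm1 (-0.14) and Irf4 (0.47), which other cells also express, were not called.

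The B cell list showed no such rise, with 0 of 13 genes called in either direction and a median of -0.66. Cd79a, part of the B cell receptor, was at 10.7, 13.7, 12.3 and 7.55 CPM after bleomycin and at 8.19, 26.7, 28.2 and 9.18 after saline, so the saline lungs fell into a high and a low pair and the groups overlapped (-0.72 ± 0.46, adjusted p = 0.309). Of 10 genes of germinal centres and lymphoid tissue 1 was called, S1pr2 (0.36 ± 0.1). Of 18 T cell genes 5 were called higher and 0 lower (median 0.5): Foxp3, which defines regulatory T cells, was at 1.72, 3.41, 4.56 and 1.01 CPM against 0.291 to 0.723 (2.38 ± 0.43, adjusted p = 1.94e-05), and Pdcd1 (2.43 ± 0.7), Ctla4 (1.82 ± 0.5), Il2ra (0.78 ± 0.21) and Icos (0.63) rose with it. The pan-T genes Cd3e (0.28) and Cd3g (0.41) were not called. None of the 12 cytotoxic and NK cell genes was called, with a median of -0.93. Prf1, perforin, was at 3.6, 2.2, 3.09 and 2.6 CPM against 4.71, 4.54, 7.31 and 6.38, groups that did not overlap (-1 ± 0.51, adjusted p = 0.165). In the fit on the 8 libraries alone 7 of these 12 genes were called lower, and in the fit on the young libraries 6.

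**Figure D3:**
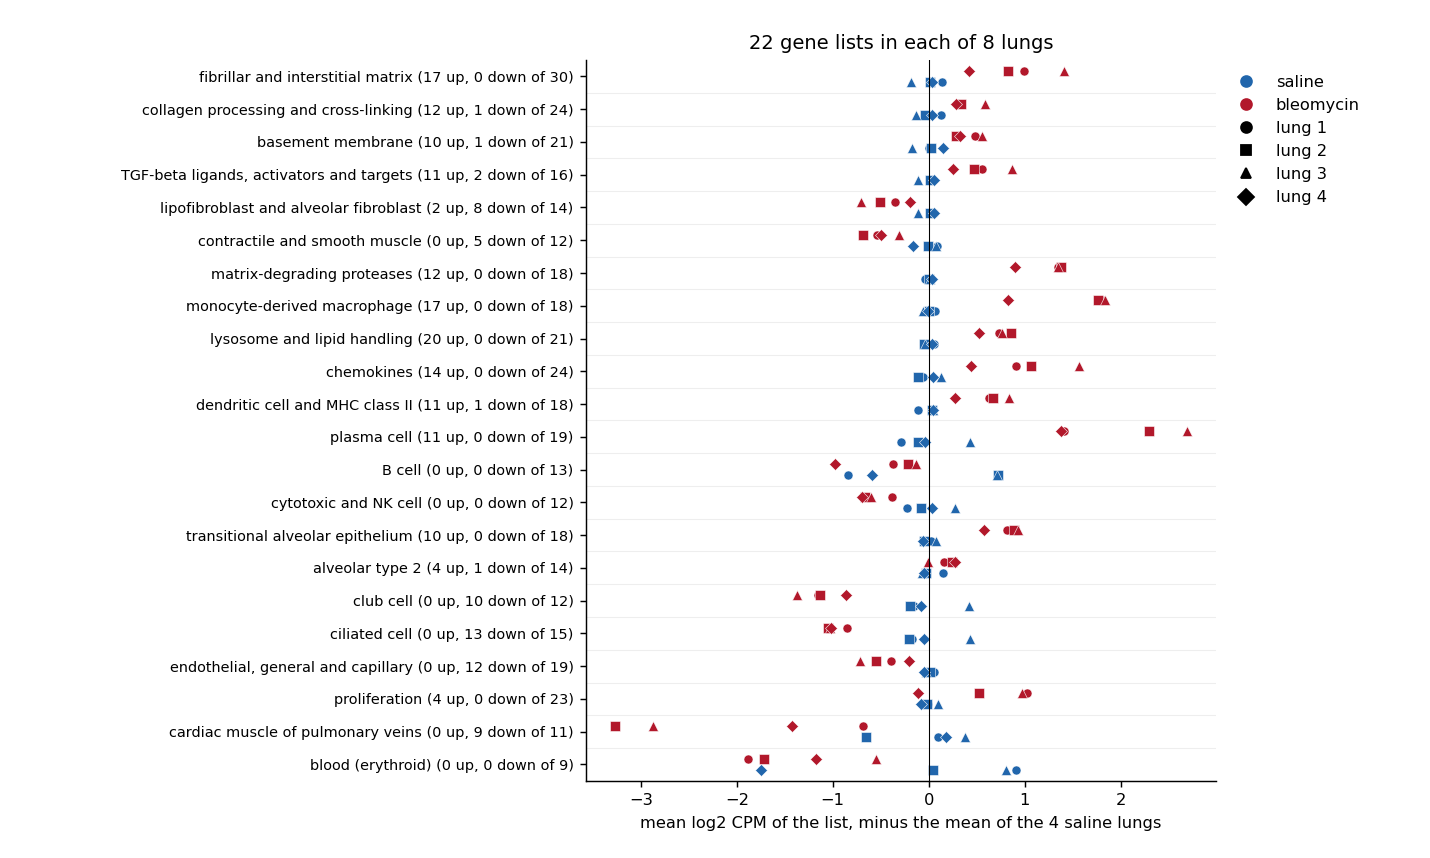
Mean log2 CPM of 22 gene lists in each lung, minus the mean of the 4 saline lungs (x axis), with red for bleomycin, blue for saline and shapes for lungs 1 to 4. Counts beside each list are the members called higher and lower of those tested. Monocyte-derived macrophage scores lie at 0.83 to 1.84 in bleomycin lungs, and cardiac muscle scores spread from -3.27 to -0.68.

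In the alveolar epithelium, the transitional state between type 2 and type 1 cells was represented by 18 genes, of which 10 were called higher and 0 lower (median 0.52). Lcn2, lipocalin 2, was at 444, 576, 397 and 295 CPM against 112.6, 87.4, 99.3 and 81.2 (2.17 ± 0.33, adjusted p = 2.86e-07). Cldn4, a tight junction protein of this state, was at 21.7, 12, 28.9 and 4.5 CPM against 3.89, 4.8, 6.06 and 4.31, so that lung 4 lay within the saline range (1.81 ± 0.48, adjusted p = 0.00301). Sprr1a (2.78 ± 0.5), Tnip3 (1.77), Areg (1.59) and Lgals3 (1.09 ± 0.2) rose, and of these Lgals3 is also a macrophage gene. Krt8, the keratin most used to mark the state, was at 168, 171, 158 and 146.9 CPM against 117.6, 126.2, 147.9 and 120.7, with lung 4 just below the highest saline lung (0.33 ± 0.15, adjusted p = 0.124). Its partner Krt18 was called (0.45), and Cdkn1a, a cell cycle inhibitor induced by injury, was not (0.2 ± 0.16, adjusted p = 0.457). Saa3, an acute-phase protein made by epithelium and macrophages, was at 37, 36.1, 67.7 and 18.2 CPM against 1.57, 1.76, 4.46 and 1.55 (4.06 ± 0.68).

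The mature alveolar lists held calls in both directions. Of 14 type 2 cell genes 4 were called higher (Sftpd, Napsa, Hc and Il33) and 1 lower (Chia1), with a median of 0.19. The higher count fell to 2 without bleomycin lung 2, and the call of Chia1 was lost in 3 of the 13 alternative fits. Sftpc was at 14636, 19802, 13308 and 18495 CPM against 16288, 14667, 16081 and 13581 (0.13 ± 0.22, adjusted p = 0.764). Of 14 type 1 cell genes 1 was called higher, Cldn18 (0.45 ± 0.15), and 3 lower, Hopx (-0.62 ± 0.2), Cav1 (-0.36 ± 0.1) and Vegfa (-0.34 ± 0.09). Ager was at 2153, 2715, 1790.3 and 2279.5 CPM against 1625, 2197, 2401 and 2097 (0.1 ± 0.17, adjusted p = 0.759). The calls of Hopx, Cav1 and Vegfa were each lost without bleomycin lung 3. That of Hopx was also lost without saline lung 2 or 3, and that of Cav1 in the fit on the 8 libraries alone. Cldn18 lost its call without bleomycin lung 2 and without saline lung 1.

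Airway epithelium was lower after bleomycin. Of 12 club cell genes 0 were called higher and 10 lower (median -1.14), and of 15 ciliated cell genes 0 higher and 13 lower (median -1.06). Scgb1a1 was at 6461, 8654, 6256 and 8941 CPM against 16166, 13889, 25364 and 15848, with no overlap (-1.23 ± 0.26, adjusted p = 1.58e-04). Scgb3a2, a second secretoglobin, fell by 1.75 ± 0.37, and Cyp4b1 and Aldh1a1, enzymes of club cells, by 1.17 ± 0.23 and 0.96 ± 0.20. Foxj1 was at 45.2, 47.9, 53.9 and 53.2 CPM against 99.1, 83, 140.3 and 95 (-1.06 ± 0.26, adjusted p = 0.00134). Tekt4 (-1.28 ± 0.29), Sntn (-1.25 ± 0.29) and Rsph1 (-1.2 ± 0.27), parts of the cilium, fell with it. Bleomycin lungs were close together for the ciliated list, with scores of -1.05 to -0.85 on the scale of the list plot, and unlike the matrix genes they were not ordered by lung 4 and lung 3. Saline lung 3 had the highest saline scores of both lists, 0.42 and 0.43 above the saline mean. The untreated lungs ranged from -0.59 to 0.17 for the club cell list and from -0.75 to 0.25 for the ciliated list, with untreated lung 4 the lowest. Without saline lung 3, 8 club cell genes were called lower.

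Of 15 genes of basal and metaplastic epithelium 1 was called higher, Dclk1 (0.91 ± 0.19), and 3 lower, the secretory genes Bpifb1 (-2.65 ± 0.86), Muc5b (-1.68 ± 0.63) and Spdef (-1.06 ± 0.3). The lower count was 0 without bleomycin lung 2. Over the 13 alternative fits the call was lost in 7 for Muc5b, in 3 for Bpifb1 and in 1 for Spdef. Krt5 (0.85, adjusted p = 0.605) and Trp63 (-0.57, adjusted p = 0.33), which mark basal cells, were not called.

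Endothelial genes were lower. Of 19 general and capillary endothelial genes 0 were called higher and 12 lower (median -0.41). Kdr, a receptor for vascular endothelial growth factor, was at 435, 306, 309.6 and 462 CPM against 681, 597, 514 and 649 (-0.69 ± 0.16, adjusted p = 9.89e-04). Ednrb, an endothelin receptor of alveolar capillaries, was at 56.6, 41.8, 26.6 and 80.1 CPM against 138.4, 130.2, 119.1 and 123.8, without overlap (-1.32 ± 0.27). Fibin (-1.27 ± 0.24), Plvap (-0.7 ± 0.17) and Tek (-0.48) fell, while Pecam1 (-0.23) and Cdh5 (-0.29), present in all endothelium, were not called. The count of 12 was 7 without bleomycin lung 2, without bleomycin lung 3 and without saline lung 1. Of 18 arterial, venous and lymphatic genes 7 were called higher and 4 lower. Ackr1, a chemokine decoy receptor of venules, was at 2.87, 2.2, 2.33 and 0.933 CPM against 0.172 to 0.361 (2.93 ± 0.55, adjusted p = 3.39e-05), and the lymphatic genes Prox1 (1.13), Mmrn1 (0.94 ± 0.18) and Reln (0.85) rose. The arterial genes Bmx (-0.68 ± 0.14), Gja5 (-0.58) and Efnb2 (-0.5) fell.

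Signalling lists beyond TGF-beta were mixed. Of 17 WNT and hedgehog genes 9 were called higher and 2 lower (median 0.57). Dkk2, a secreted WNT modulator, was at 6.52, 8.13, 18.9 and 2.15 CPM against 1.57, 1.03, 1.32 and 1.42 (2.74 ± 0.6), and Wnt7b (0.9 ± 0.2), Wnt5a (0.61) and Gli1 (0.68 ± 0.16) rose. Wnt2, a ligand of alveolar stroma, fell by 0.86 ± 0.2, and the WNT target Axin2 was not called (-0.24). Of 18 BMP pathway genes 2 were called higher (Grem1 and Id2) and 5 lower, among them the pathway's inhibitor Smad6 (-1.05 ± 0.23) and its antagonist Chrdl1 (-0.62 ± 0.17). The lower count was 3 without bleomycin lung 2, bleomycin lung 3 or saline lung 1.

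Proliferation genes were called in 4 of 23 cases, all higher (Mki67, Cdk1, Tpx2 and Rrm2), with a list median of 0.64. Mki67, a marker of cycling cells, was at 18.8, 12, 24.7 and 5.32 CPM against 5.17, 5.57, 5.38 and 5.73, so that lung 4 lay within the saline range (1.47 ± 0.48, adjusted p = 0.0202). This count rested on single lungs: it was 0 without bleomycin lung 1 and without bleomycin lung 3, 2 without saline lung 4, 11 without bleomycin lung 4 and 13 in the fit on young libraries. Of 17 p53 targets 1 was called higher, Zmat3 (0.47 ± 0.13), and 1 lower, Trp73 (-1.12 ± 0.27), a gene also needed by ciliated cells. Of 15 senescence genes 6 were called higher and 1 lower: Cdkn2a, which encodes p16, rose by 1.75 and Igfbp3 fell by 1.51 ± 0.26.

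Metabolic and stress lists were mixed. Of 15 antioxidant and xenobiotic genes 5 were called higher, with Slc7a11 (2.04 ± 0.32), the cystine transporter, and Hmox1 (1.16 ± 0.2), heme oxygenase, in the lead. Another 5 were called lower, led by the glutathione transferase Gsta2 (-1.72 ± 0.41), and 2 without saline lung 3. Of 21 genes of lipid and cholesterol synthesis 4 were called higher, including Scd1 (0.93 ± 0.21) and Fasn (0.59 ± 0.15), enzymes of fatty acid synthesis that surfactant production also needs. Of 16 hypoxia and glycolysis genes 5 were called higher and 1 lower, and 2 higher without bleomycin lung 3 or without saline lung 4. Of 15 genes of the unfolded protein response 3 were called higher, led by Sdf2l1 (0.81 ± 0.21), and 1 without bleomycin lung 4 or without saline lung 3. Of 15 genes of type 2 inflammation and alternative activation 5 were called higher, and 8 without bleomycin lung 4 and 3 without bleomycin lung 3.

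Beyond the lists, the largest rises with no overlap between groups included Cemip, a hyaluronan-degrading protein, at 11.6, 15.2, 41.8 and 3.73 CPM against 0.442 to 1.33 (4.37 ± 0.75, adjusted p = 5.72e-06), and Kng2, a kininogen, at 5.7, 6.38, 11 and 1.06 CPM against 0.0428 to 0.349 (4.56 ± 0.83). Slc26a4, the anion exchanger pendrin, was at 58.2, 58.7, 45.1 and 36.1 CPM against 5.99 to 8.69 (2.84 ± 0.39). The largest falls included Hes2, a transcriptional repressor, at 0.986, 0.853, 0.358 and 2.11 CPM against 5.75, 7.24, 7.87 and 6.89 (-2.67 ± 0.43, adjusted p = 1.64e-06), and Bex2 at 4.03, 7.1, 5.23 and 7.71 CPM against 30.4 to 36.2 (-2.43 ± 0.4). Atp6v1b1, a proton pump subunit, fell by 2.78 ± 0.59, Asgr1 by 2.76 ± 0.51, Sult1d1 by 2.62 ± 0.61 and Lypd2 by 2.24 ± 0.44.

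Genes of other tissue that a dissected lung can carry also differed between the groups. The list of cardiac muscle, which in mice sheathes the pulmonary veins, had 0 of 11 genes called higher and 9 lower (median -1.79). Its score was -0.68, -3.27, -2.87 and -1.42 in bleomycin lungs 1 to 4. In untreated lungs 1 to 4 it was 0.00, -0.53, -2.06 and -1.35, so untreated lungs 3 and 4 lay within the bleomycin range. Myl7, an atrial myosin light chain, was at 17.8, 3.01, 2.77 and 10.4 CPM against 42.5, 22.7, 52.7 and 43.9 (-2.24 ± 0.54, adjusted p = 0.00131), so lungs 2 and 3 were the lowest. The list count was 5 without bleomycin lung 2, without bleomycin lung 3 and in the fit on the 8 libraries alone. Ckmt2 (-2.45 ± 0.65) and Myoz2 (-2.27 ± 0.63), 2 further heart genes among the largest falls, followed the same order of lungs. Of 9 skeletal muscle genes 3 were called lower (Ckm, Tnnt3 and Atp2a1), with a list median of 0.00. The call of Ckm was lost in 6 of the 13 alternative fits, and Atp2a1 lay at only 0.18 to 2.03 CPM over the 8 lungs. In the erythroid list 0 of 9 were called although its median was -2.25. Bleomycin lung 1 held reads of genes of the seminal vesicle: Svs5 had 382, 14, 1 and 12 reads in bleomycin lungs 1 to 4, 0 in every saline lung and at most 25 in any other library of the series, and Svs1, Svs2, Svs4, Svs6 and Pate4 showed 39 to 293 reads in lung 1. How these tissues bear on the lung genes was not tested.

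Day 35 was compared with its neighbours in time through the difference of the bleomycin effects, each against the saline lungs of its own day. Against day 28, 0 genes were called in edgeR's quasi-likelihood test (0%), with 509 at an unadjusted p under 0.05 and 0 called by DESeq2. Against day 42, 0 were called (0%), with 1018 at an unadjusted p under 0.05 and 4 called by DESeq2. A difference that misses the threshold does not show that the effects were alike. Within each day the counts themselves were unequal: at day 28 14.7% of the genes were called higher and 14.5% lower, and at day 42 4.73% and 2.88%. Of the genes called higher at day 35, 1456 were called higher at day 28 as well, which is 78.2% of the day-35 and 53.9% of the day-28 genes, and 740 at day 42, which is 39.7% and 85%. Of the genes called lower, day 28 shared 1475 (83.6% and 55.3%) and day 42 shared 351 (19.9% and 66.2%).

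The interstitial matrix list had 24 of 30 genes called higher at day 28, 17 at day 35 and 3 at day 42, with medians of 1.01, 0.75 and 0.16. The effect on Eln was 1.97 ± 0.31, 1.74 ± 0.34 and 0.73 ± 0.3 on the 3 days, and its difference between day 35 and day 42 was 1.01 ± 0.44 (unadjusted p = 0.0245, adjusted p = 0.889). Col1a1 went from 1.31 ± 0.31 through 0.94 ± 0.34 to 0.13 ± 0.30. The ciliated list had 13, 13 and 0 of 15 genes called lower, with medians of -1.13, -1.06 and -0.26. Its median on day 56 was -0.75. Foxj1 stood at -1.06 ± 0.23, -1.06 ± 0.26 and -0.12 ± 0.23, and at -0.93 ± 0.25 on day 56 (day 35 minus day 42: -0.94 ± 0.34, unadjusted p = 0.00702, adjusted p = 0.889). The monocyte-derived macrophage list had 17, 17 and 14 of 18 genes called higher, and Mmp12 was at 4.64 ± 0.52, 4.19 ± 0.58 and 3.88 ± 0.52. Plasma cell genes had 7, 11 and 11 of 19 called higher, and Jchain was at 2.36 ± 0.59, 3.54 ± 0.69 and 3.64 ± 0.62. For none of these genes did the difference of day 35 from day 28 or from day 42 pass the threshold. Differences between days in the list counts or medians, and those from day 56, were not tested. The smallest adjusted p against day 28 was 0.175, of Jaml, an adhesion molecule of leukocytes, chosen here after its values were seen, whose effect was -0.93 ± 0.21 at day 28 and 0.52 ± 0.23 at day 35.

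**Figure D4:**
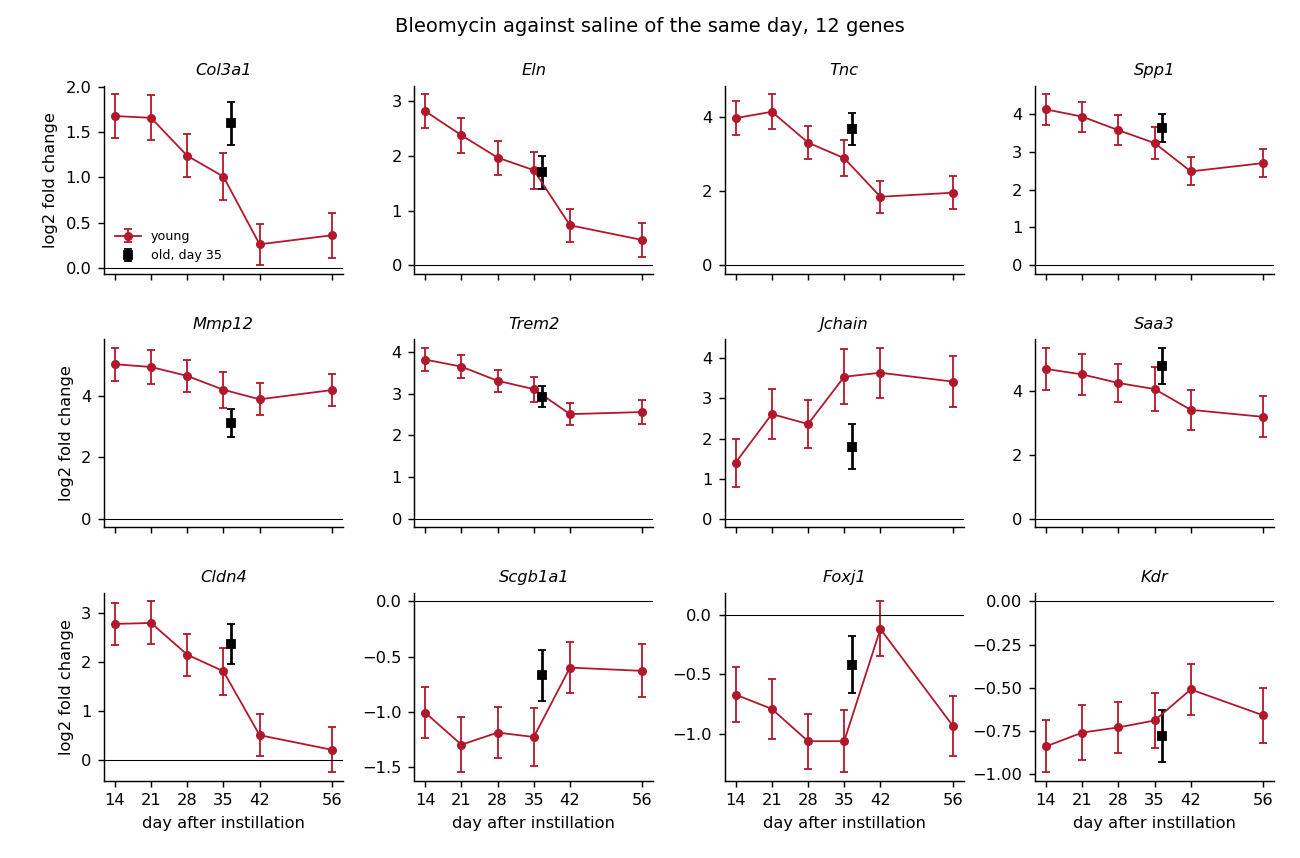
Log2 fold change of 12 genes, bleomycin against saline of the same day (y axis), by day after instillation (x axis), with bars for the SE. Red points are young lungs and the black square is old lungs at day 35, drawn to the right of the young point. Eln and Cldn4 have lower values on day 42 than on day 28, a difference that was not tested, while Jchain stays between 3.42 and 3.64 from day 35 on.

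In old lungs at day 35, 16.2% of the genes were called higher and 13.4% lower. Of the genes called higher in young lungs, 1429 were also called higher in old lungs (76.7% of the young and 47.8% of the old genes), and of those called lower 1160 were (65.8% and 47.2%). The test of the difference between the 2 effects called 1 gene (0.00544%), with 945 at an unadjusted p under 0.05 and 0 called by DESeq2. That gene was Svs5, whose reads came mostly from young bleomycin lung 1 as given above. Tnc stood at 2.88 ± 0.49 in young and 3.66 ± 0.43 in old lungs, Spp1 at 3.23 ± 0.43 and 3.64 ± 0.37, Eln at 1.74 ± 0.34 and 1.7 ± 0.3, and Foxj1 at -1.06 ± 0.26 and -0.42 ± 0.24. Ighg2c stood at 6.88 ± 1.51 and 1.05 ± 0.92 (old minus young: -5.83 ± 1.81, unadjusted p = 0.00162, adjusted p = 0.653). Age and dose changed together here, so they cannot be told apart.

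As a background, the 4 saline lungs were set against the 4 young untreated lungs. In edgeR's test 52 genes were called (0.283%), every one lower in saline. Untreated lung 3 was the highest of the 4 untreated lungs in 46 of them and untreated lung 1 in the other 6. Mmp12 was at 6.34, 5.55, 349 and 6.55 CPM in untreated lungs 1 to 4, so that untreated lung 3 exceeded every bleomycin lung. Arg1 was at 1.54, 0.858, 99.2 and 1.77 CPM, Chil3, a chitinase-like protein of alternatively activated macrophages, at 431, 451, 3813 and 597, Retnla at 45.6, 34.4, 894 and 82.4 and Slc26a4 at 10.8, 12.5, 136.6 and 12.2. Of the 52 genes 23 were also called higher after bleomycin. Without untreated lung 3, a fit added after the values were seen, 7 genes were called, of which 6 were among the 52. These were skeletal muscle genes such as Acta1, Myh8 and Tnnc2, with H19. Without untreated lung 1 the count was 89. The bleomycin comparison above uses the saline lungs as its reference and no untreated lung.

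**Figure D5:**
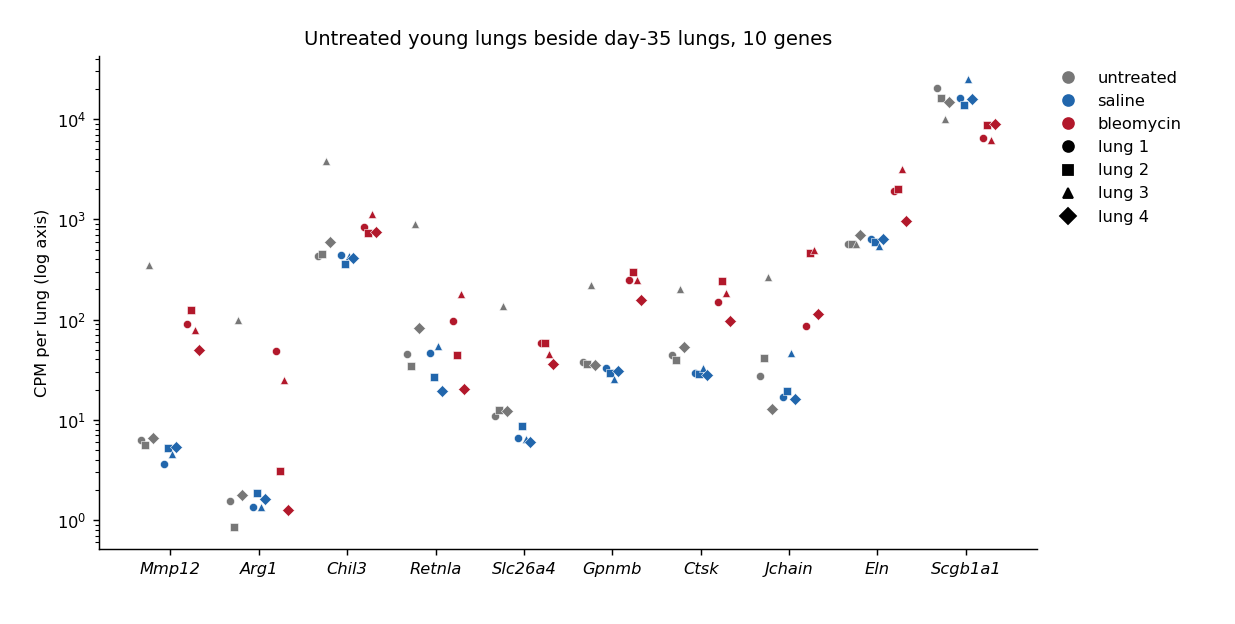
CPM on a log axis of 10 genes (x axis) in young untreated (grey), saline day 35 (blue) and bleomycin day 35 (red) lungs, with shapes for lungs 1 to 4. Untreated lung 3 (grey triangle) lies among or above the bleomycin lungs, as for Mmp12 at 349 CPM, whereas the other 3 untreated lungs lie near the saline lungs for that gene, at 5.55 to 6.55 CPM.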

How the data were processed

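Lung messenger RNA of young and old mice had been sequenced, and the authors deposited raw counts of reads per gene for 48794 Ensembl genes, which were used as deposited. Per the submitters' processing notes, the tools were FastQC 0.11.5, bcl2fastq 2.20.0.422, RSEM 1.3.0, STAR 2.5.2 and 2.5.2b, and featureCounts 1.5.1, and the builds hg38, GRCh38 and GRCm38 are listed without roles. The strand setting and annotation release are not given in the sources used here, so reads of overlapping or antisense genes cannot be told apart. Library totals were 14.91 to 31.02 M reads. GENCODE M21 gave symbols and GRCm38 positions.

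The counts of all libraries were fitted in 1 model with edgeR 4.0.16 (R 4.3.3; TMM; filterByExpr with a minimum count of 10 and minimum total of 15; glmQLFit, robust; glmQLFTest) with 1 coefficient for each of 26 groups of age, treatment and day and 111 residual degrees of freedom. SEs were derived from the F statistic (size of the log2 fold change over the root of F) and draw on the spread over all libraries. The common biological coefficient of variation was 16.0%. List scores are mean log2 CPM with a prior count of 2. The pipeline was tested on simulated data.

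Members and the 53 gene lists were chosen with earlier results of these data known, so list counts are descriptions. Named genes were a panel of 35, the 10 largest called rises and falls (no overlap of the groups, average log2 CPM over 1), up to 4 called members of each list by smallest p, and up to 5 genes per direction in the other comparisons. Further list members are named from the fit over all genes, after their values were seen. Alternatives were RLE scaling, no filter, DESeq2 1.42.0, the groups of a comparison alone, the young libraries only, and each of the 8 lungs left out. Some members of the lists are counted but not reported here.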

Additional observations from a re-analysis of the deposited data

Results flagged for a closer look

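Within groups of 4 lungs, a value was singled out where its gap to the nearest other lung exceeded Dixon's 95% critical value as a share of the group's range. This was met in 19 of the groups examined (15%). Chance alone flags about 1 in 20, but many of the genes examined were chosen by their values in these lungs. The Svs genes are examples, so these shares cannot be set against each other. In bleomycin lungs these were Acta2 in lung 3 (208 CPM, highest), Spp1 in lung 4 (475, lowest), Ighg2b in lung 3 (163, highest) and Atp6v1b1 in lung 4 (0.649, highest). Svs5 (16.4 CPM), Svs2 (12.6) and Svs4 (11.7) were highest in bleomycin lung 1. Among saline lungs, lung 3 was highest for Jchain (46.2 CPM), Saa3 (4.46), Ighg3 (3.61), Asgr1 (4.3) and Sult1d1 (17.6), lung 1 highest for Sprr1a (1.28) and lung 2 lowest for Kng2 (0.0428). Untreated lung 3 was highest for Mmp12 (349 CPM), Arg1 (99.2), Chil3 (3813), Slc26a4 (136.6) and Retnla (894).

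The bleomycin effect on Svs5 at day 35 differed between old and young lungs, with a fitted difference of -15.22 on the log2 scale in edgeR's test (adjusted p = 3.78e-04). The gene had no read in any of the 4 young saline lungs, so this fitted value depends on the prior count and is no bound. Without bleomycin lung 1, which held 382 of its reads, the call remained (-11.75, adjusted p = 0.00607).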

How the results depend on the processing

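RLE scaling, no filter, DESeq2, the 8 libraries alone and the young libraries only gave 2948 to 4310 genes called in the bleomycin comparison, each within 1.5 times of 3626. Leaving out 1 lung gave 2283 (without bleomycin lung 3) to 4162 genes (without bleomycin lung 4), and 1008 to 2019 called lower. Of 178 named genes that were called, 42 lost the call in at least 1 of 13 alternatives, the others were called in each, and 0 reversed. Of those not called, 4 (Jaml, Krt8, Npnt and Prf1) were called in at least 1.

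Against day 28, leaving out 1 lung gave 0 to 1 gene called, Ceacam10 without saline lung 2. Against day 42, DESeq2 called 4 genes (Rnase2a, Ighe, Igkv8-34 and 1 without a symbol). For old minus young, DESeq2 and the groups alone called 0 genes, and leaving out 1 lung called 1 to 3 (Svs5, Svs2 and 1 without a symbol). Against untreated lungs the groups alone gave 0 genes, the young libraries 15, and leaving out 1 lung 7 (without untreated lung 3) to 89 (without untreated lung 1). The cause was not tested. No paired analysis was possible because lungs of different groups share no replicate numbers in GEO's titles. With 4 lungs a group, genes with few reads are measured least well.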

Other observations

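Several lists not described above held few or no calls at day 35. Of 12 circadian clock genes 0 were called in either direction in edgeR's test (median -0.09), as were 0 of 8 mesothelial (median 0.02), 0 of 10 adipose tissue (-0.65), 0 of 8 platelet (-0.79) and 0 of 4 thymus genes (0.01). In the fit on the 8 libraries alone 6 platelet genes were called lower, and of the clock genes 2 were called higher and 3 lower. Without bleomycin lung 2, 2 adipose tissue genes were called lower. Of 13 immediate early genes, which respond to handling within minutes, 2 were called lower: Fosb was at 26.1, 15.5, 10.2 and 26.7 CPM against 36.7, 35.2, 40.3 and 141.2 (-1.69 ± 0.53, adjusted p = 0.0141), where saline lung 4 stood above the rest, and Jun fell by 0.47 ± 0.12. The call of Fosb was lost in 4 of the 13 alternative fits, among them that without saline lung 4. Of 9 mast cell genes 1 was called higher, Hdc (0.47 ± 0.18, adjusted p = 0.0494), and 1 lower, Gata2 (-0.65 ± 0.17). The call of Hdc was lost in 7 of the 13 alternative fits. The mast cell proteases Cma1 (-0.74) and Tpsb2 (-1.37) were not called.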
